A study of Bos taurus with 6 samples.

Results

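Reads of the RTL1-antisense miRNAs, a group of imprinted miRNAs, were followed in fetal bovine serum (FBS) after ultracentrifugation. The group was taken by name, as every listed miRNA numbered miR-127, miR-136, miR-337, miR-370, miR-431, miR-432, miR-433, miR-493 or miR-665, both arms included. This gave 13 of the 502 miRNA names of the mapping to the human genome (hg19) and 12 of the 395 names of the mapping to the mouse genome (mm10). A mature miRNA is cut from the 5′ or the 3′ side of a hairpin, and these arms, 5p and 3p, are listed as separate miRNAs.

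FBS is blood serum of unborn calves and a common supplement of cell culture media. The study spun 3 batches of it, 40 mL at 100000 g for 24 h, and compared the RNA of 3 pellets, enriched in extracellular vesicles (EVs), with that of 3 supernatants, of which 20 mL was concentrated on 3 kDa filters. Serum of many calves is pooled in such a product, no cell type was isolated, and neither fraction is pure, since other heavy particles sediment with EVs. The libraries held inserts of 15 to 65 nt made from 60 ng of RNA treated with a kinase that repairs fragment ends, and bovine reads were assigned to human or mouse miRNAs by mapping.

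In mammals these miRNAs lie in the DLK1-DIO3 domain, where genes are read from only the paternal or only the maternal chromosome. RTL1 is a retrotransposon-derived gene of the paternal copy that the mouse placenta needs. An RNA read from the maternal copy in the opposite direction carries several of these miRNAs, and in mice they pair with Rtl1 mRNA and direct its cleavage. The domain is active in the fetus and placenta, and in sheep the callipyge mutation within it enlarges muscle and raises DLK1 and RTL1.

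The cattle annotation (ARS-UCD2.0, a different assembly from those of the mappings, used only for names and neighbours) places a gene for 8 of the 9 miRNA numbers in this domain. Only 5 of them, MIR431, MIR433, MIR127, MIR432 and MIR136, lie within RTL1. MIR493 and MIR665 lie between MEG3, a maternally expressed long noncoding RNA, and RTL1. MIR370 follows RTL1 on the side of the large miR-379/410 cluster. The name RTL1-antisense thus describes by position only part of the group, and miR-337 had no cattle gene under that name in the table used here.

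Values are given as RPM, mapped reads of a miRNA scaled to a fixed total of mapped reads per library, so each is a share of what mapped in its library and not an amount of RNA per mL of serum. The depth was estimated by taking the lowest value that at least 6 miRNAs of a library shared as 1 read, which gave 867426 to 6660802 mapped reads in the human mapping. Pellet 1 was the deepest and pellet 3 the shallowest library, and 1 read was worth 0.150 RPM in the former and 1.15 RPM in the latter. Pellet 1 also stood apart in its share of mapped reads listed as miRNA, 12.9% against 5.21% to 7.74% in the other 5 libraries. Fold changes and ratios that moved by over 1.5 times without it are therefore given both ways.

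Fractions were compared with limma on log2(RPM + 1) over every miRNA that reached 1 RPM in 3 or more of the 6 libraries, and a miRNA was called at an adjusted p under 0.05. Of the 13 members 5 entered this test, among 153 miRNAs. An exact permutation test of 3 against 3 libraries cannot give a two-sided p under 0.10, so it is given only where its value adds to the description.

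hsa-miR-127-3p and hsa-miR-432-5p were the most abundant members, and as shares of mapped reads both were higher in the pellets. miR-127 is one of the miRNAs of the group that pair with Rtl1 in mice, and in human cells it represses BCL6, a repressor of transcription in germinal centre B cells. hsa-miR-127-3p had 701 RPM in pellet 1, 351 RPM in pellet 2 and 72.2 RPM in pellet 3, and 44.0, 25.3 and 27.4 RPM in supernatants 1, 2 and 3. The groups did not overlap, but the lowest pellet was only 1.64 times the highest supernatant, whereas the pellets themselves spanned 9.71-fold. The pellets averaged 375 ± 315 RPM and the supernatants 32.3 ± 10.3 RPM (SD, n = 3 each). The log2 fold change was 3.02 (SE 0.78, 95% interval 1.22 to 4.82, adjusted p = 0.0225), and 2.31 (adjusted p = 0.0300) without pellet 1. The ratio of the means was 11.6, and 6.56 without pellet 1. Median-of-ratios scaling sets the typical miRNA, among those above 0 in all 6 libraries, to the same level in each library. With it the log2 fold change of hsa-miR-127-3p was 1.01 and no longer passed (adjusted p = 0.390). In bulk serum RNA, a change in the number of particles that carry a miRNA and a change in its amount per particle cannot be told apart, and neither can fewer source cells and less RNA per cell.

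hsa-miR-432-5p varied less. It had 319 RPM in pellet 1, 342 RPM in pellet 2 and 136.3 RPM in pellet 3, against 56.1, 80.1 and 109.7 RPM in supernatants 1, 2 and 3. Again no supernatant reached the lowest pellet, which was 1.24 times the highest supernatant. The means were 266 ± 113 RPM and 82.0 ± 26.9 RPM (SD, n = 3 each), with a log2 fold change of 1.63 (SE 0.49, 95% interval 0.49 to 2.76, adjusted p = 0.0318). Scaled to the reads listed as miRNA it was 0.99 (adjusted p = 0.0960), and with median-of-ratios scaling it turned to -0.41 (adjusted p = 0.519). Among all listed miRNAs, hsa-miR-432-5p ranked 20, 11 and 15 in pellets 1, 2 and 3 and 11, 9 and 8 in supernatants 1, 2 and 3. It therefore stood higher in the order of the supernatants than of the pellets, although its RPM was higher in the pellets. hsa-miR-127-3p ranked 5, 9 and 28 in the pellets and 14, 19 and 19 in the supernatants.

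These 2 of 5 tested members passed the threshold of limma as higher in the pellets, and 0 as lower. Over all tested miRNAs 73 of 153 passed as higher (47.7%) and 0 as lower, and 0 were lower at an unadjusted p under 0.05 as well, so the count of members is close to the background. This one-sided picture holds relative to mapped reads: with median-of-ratios scaling 1 of 153 passed as higher and 5 as lower, with 15 and 12 at an unadjusted p under 0.05, and 0 of the members passed. No overlap between the fractions, with all pellets higher, was seen for 4 of 5 tested members and for 66.7% of all tested miRNAs. The median log2 fold change was 1.75 over the tested members and 2.05 over all tested miRNAs. Without supernatant 1 or 2 none of the 148 or 151 tested miRNAs passed in limma (unadjusted, 67 and 61 had a p under 0.05), and the calls of both members were lost without any 1 supernatant. hsa-miR-127-3p had an adjusted p of 0.0768, 0.0965 and 0.0711 without supernatant 1, 2 and 3, with log2 fold changes of 3.26, 2.87 and 2.93. hsa-miR-432-5p had an adjusted p of 0.120, 0.110 and 0.0634 in the same order, with log2 fold changes of 1.38, 1.64 and 1.86, and of 0.0664 without pellet 2, with a log2 fold change of 1.39.

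**Figure D1:**
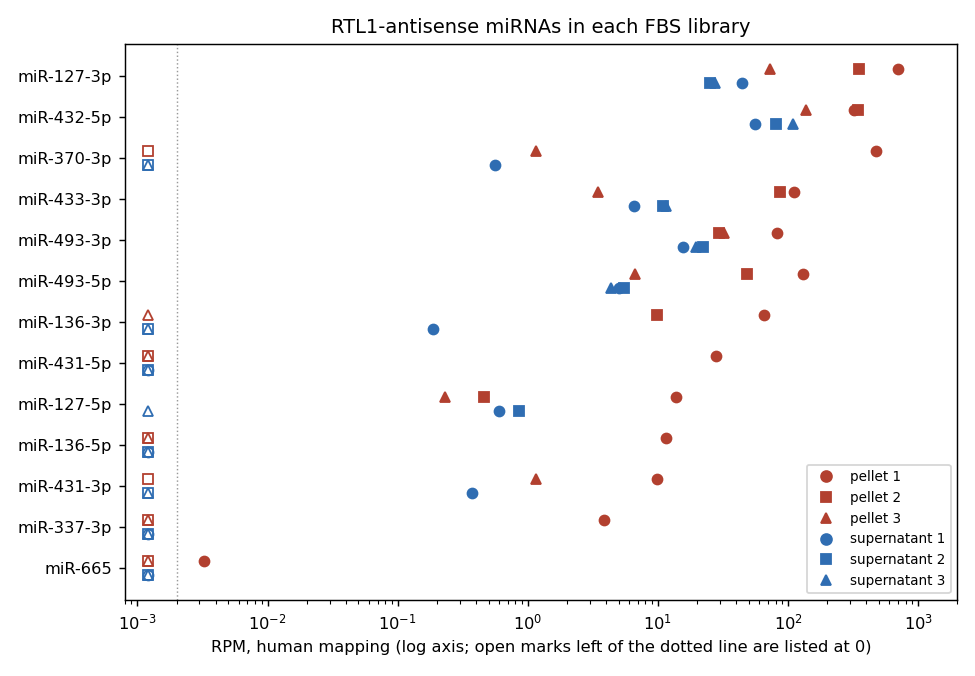
RPM of the 13 members (human mapping, log axis) in each of 3 pellets (red) and 3 supernatants (blue), with open marks left of the dotted line for values listed at 0. hsa-miR-127-3p, hsa-miR-432-5p, hsa-miR-433-3p and both arms of miR-493 have values above 0 in all 6 libraries. hsa-miR-431-5p, hsa-miR-136-5p, hsa-miR-337-3p and hsa-miR-665 have a value above 0 in pellet 1 only.

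hsa-miR-433-3p and the arms of miR-493 were the other members tested, and none of them passed the threshold. hsa-miR-433-3p had 110.4, 86.1 and 3.46 RPM in pellets 1, 2 and 3 and 6.52, 11.0 and 11.5 RPM in supernatants 1, 2 and 3. Pellets 1 and 2 were thus far above every supernatant, and pellet 3 below all of them. The value of pellet 3 came from an estimated 3 reads, for which the exact Poisson interval (95%) runs from 0.713 to 10.1 RPM and covers counting error only. The log2 fold change was 1.75 (SE 1.16, adjusted p = 0.222), and without pellet 3 it was 3.24 (adjusted p = 0.000971). Without pellet 1 it was 0.92 (adjusted p = 0.490), without pellet 2 1.10 (adjusted p = 0.437), and with median-of-ratios scaling -0.17 (adjusted p = 0.910).

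miR-493 represses the receptor IGF1R in human cells, and its gene lies nearest to MEG3 in the cattle order. hsa-miR-493-5p had 130.7, 48.4 and 6.63 RPM in pellets 1, 2 and 3 and 5.05, 5.47 and 4.32 RPM in supernatants 1, 2 and 3. The fractions did not overlap, with pellet 3 just above the supernatants. The value of pellet 3 came from an estimated 5.75 reads, and 1 read there was worth 1.15 RPM. The lack of overlap thus rests on few reads. The log2 fold change was 2.63 (SE 0.99, 95% interval 0.36 to 4.90), and the adjusted p of 0.0535 missed the threshold by little. Without pellet 3 the log2 fold change was 3.77 (adjusted p = 0.00121), and without pellet 1 it was 1.71 (adjusted p = 0.115). With median-of-ratios scaling it was 0.75 (adjusted p = 0.622). The adjusted p was 0.0230 with the replicate number as a block, although nothing states that libraries of the same number came from the same batch.

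The 3p arm of miR-493 had a flatter profile. hsa-miR-493-3p had 81.7, 29.5 and 32.3 RPM in pellets 1, 2 and 3 and 15.4, 22.0 and 19.8 RPM in supernatants 1, 2 and 3. Every pellet was above every supernatant, but the log2 fold change of 1.14 (SE 0.56, 95% interval -0.15 to 2.43, adjusted p = 0.115) did not pass, and with median-of-ratios scaling it turned to -0.83 (adjusted p = 0.410). The order of the arms differed between libraries. In pellets 1 and 2 the 5p arm was the larger, with 1.60 and 1.64 reads for each read of the 3p arm. In pellet 3 this ratio was 0.205, from an estimated 5.75 and 28.0 reads, and in supernatants 1, 2 and 3 it was 0.327, 0.248 and 0.219. The 3p arm thus made up 38.5% and 37.9% of both arms in pellets 1 and 2, 83.0% in pellet 3 and 75.4% to 82.1% in the supernatants. Pellet 3 lay with the supernatants, so the fractions overlapped in this ratio (exact permutation p = 0.40, two-sided).

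**Figure D2:**
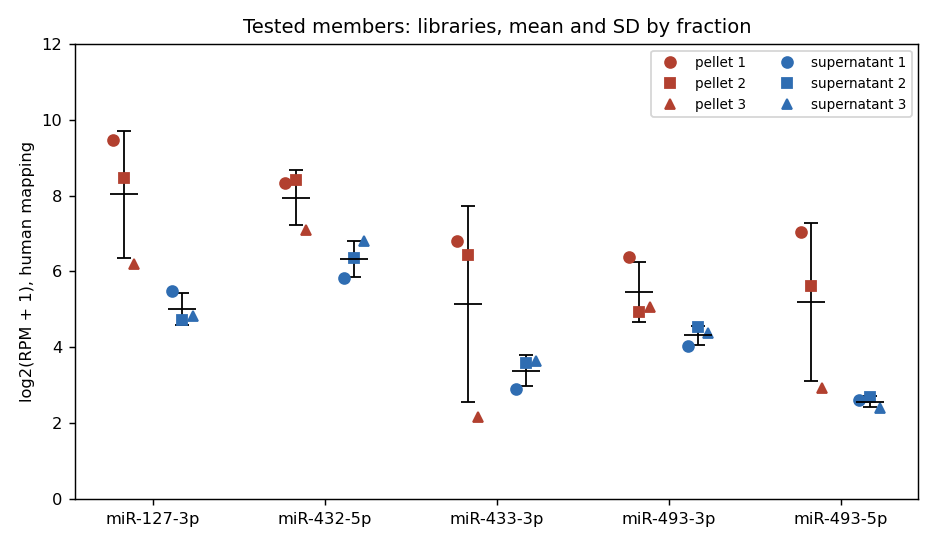
log2(RPM + 1) of the 5 tested members in 3 pellets (red) and 3 supernatants (blue), with the mean (long line) and SD (short lines) of each fraction. Pellet 3 is the lowest pellet for all but hsa-miR-493-3p, and for hsa-miR-433-3p it lies below all 3 supernatants.

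**Figure D3:**
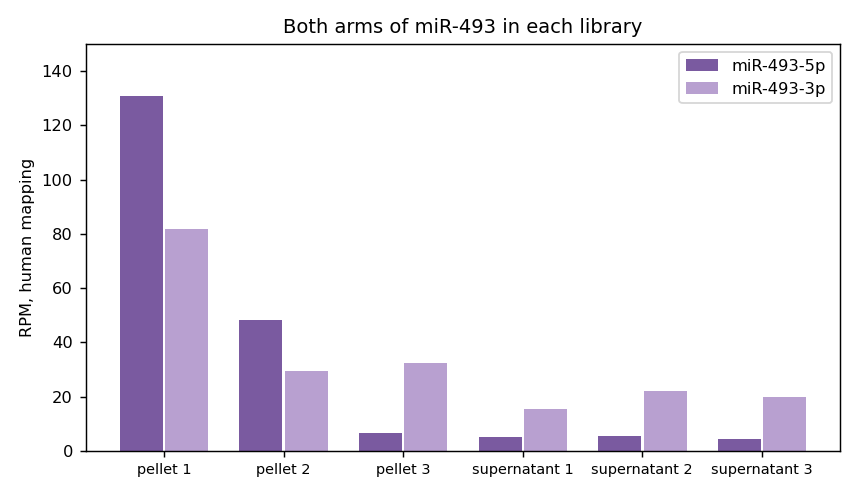
RPM of both arms of miR-493 in each library (human mapping, bars from 0). The 5p arm (dark) is the taller bar in pellets 1 and 2, and the 3p arm (light) in pellet 3 and the 3 supernatants.

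The other 8 members did not enter the test, since fewer than 3 libraries reached 1 RPM, and all had their highest value in pellet 1. hsa-miR-370-3p, which represses the fatty acid oxidation enzyme CPT1A in human liver cells, was the extreme case. It had 476 RPM in pellet 1, from an estimated 3171 reads, 0 in pellet 2 and 1.15 RPM in pellet 3, and 0.558 RPM in supernatant 1 and 0 in supernatants 2 and 3. It was thus the second member of pellet 1, with 24.4% of the reads of the group, and close to absent from the lists of the other libraries. A count of 0 was read as a limit of 3 counts per library, and against this floor pellet 1 was at least 249-fold higher than pellet 2, at least 608-fold higher than supernatant 2 and at least 489-fold higher than supernatant 3. Against the single read of pellet 3 the ratio was 413 (exact 95% counting interval 74.1 to 16316), and against the 3 reads of supernatant 1 it was 853 (292 to 4137). Pellet 2 lay at the same side of the spin as pellet 1, so this was a difference between pellets and not between fractions.

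Other members were also highest in pellet 1, at lower levels. hsa-miR-136-3p had 64.7 RPM in pellet 1, 9.88 RPM in pellet 2 and 0.186 RPM in supernatant 1, and was listed at 0 in the other 3 libraries. Its 5p arm, hsa-miR-136-5p, had 11.6 RPM in pellet 1 only. miR-431 represses Pax7, a regulator of muscle stem cells, in mice. hsa-miR-431-5p had 28.1 RPM in pellet 1 and was listed at 0 elsewhere, which makes pellet 1 at least 14.7-fold higher than pellet 2, at least 8.12-fold higher than pellet 3 and at least 28.8-fold higher than each supernatant. hsa-miR-431-3p had 9.81 RPM in pellet 1, 1.15 RPM in pellet 3 and 0.372 RPM in supernatant 1. These 4 arms of miR-136 and miR-431 were thus above 0 in pellet 1 and in at most 2 other libraries.

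The remaining members had few or no reads outside pellet 1. hsa-miR-337-3p had 3.83 RPM in pellet 1, from an estimated 25.5 reads, and was listed at 0 in the other libraries. At this level 6.01 reads would fall in pellet 2 and 3.32 reads in pellet 3, so in the latter a lack of reads says little about a lower level. In supernatants 1, 2 and 3 it would give 20.6, 14.7 and 11.8 reads. Pellet 1 was at least 6.86-fold, 4.89-fold and 3.93-fold higher than these supernatants. hsa-miR-127-5p had 13.8 RPM in pellet 1 and 0 to 0.848 RPM in the other libraries. Its 3p arm exceeded it 50.8-fold in pellet 1 and 73.9-fold and 29.8-fold in supernatants 1 and 2, so the 3p arm was the main arm of miR-127 in both fractions. hsa-miR-665 had 0.00324 RPM in pellet 1, which is less than 1 read, and it was 0 elsewhere.

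The number of members above 0 followed from this. It was 13, 7 and 8 in pellets 1, 2 and 3 and 9, 6 and 5 in supernatants 1, 2 and 3, but a deep library shows more low miRNAs. At a level of 3.46 RPM, equal to 3 counts in the shallowest library, it was 12, 6 and 5 in the pellets and 5 in each supernatant. Pellet 1 also led over all 502 names, with 391 above 0 against 193 to 254 in the other libraries. At 3.46 RPM it had 204 names, against 71 to 137. Among names reaching that level in any library, the median share of 6-library RPM found in pellet 1 was 86.5% for 12 members. It was 90.9% for the 37 such names of the neighbouring miR-379/410 cluster and 46.7% for all 228 such names. hsa-miR-370-3p, hsa-miR-337-3p, hsa-miR-127-5p, hsa-miR-136-5p and both arms of miR-431 reached that level in pellet 1 only. Such names enter through the library where they are high, so their high share there follows in part from the filter. What sets pellet 1 apart was not tested.

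Summed over the 13 members, the level was 1951, 867 and 253 RPM in pellets 1, 2 and 3 and 129, 145 and 173 RPM in supernatants 1, 2 and 3. All pellets were above all supernatants, and the supernatants differed among themselves far less than the pellets. The means of 1024 ± 859 RPM and 149 ± 22.2 RPM (SD, n = 3 each) gave a ratio of 6.88, and of 3.77 without pellet 1. As a share of the reads listed as miRNA, the group made up 1.51%, 1.12% and 0.400% in pellets 1, 2 and 3 and 0.220%, 0.263% and 0.331% in supernatants 1, 2 and 3. The ratio of the mean shares was 3.72, smaller than that of the RPM, since miRNA was a larger share of mapped reads in the pellets. That share was 6.33% to 12.9% in the pellets and 5.21% to 5.85% in the supernatants.

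The composition of the group also differed between libraries. hsa-miR-127-3p made up 35.95%, 40.4% and 28.5% of the group in pellets 1, 2 and 3 and 34.2%, 17.5% and 15.9% in supernatants 1, 2 and 3. hsa-miR-432-5p made up 16.3%, 39.5% and 53.8% in the pellets and 43.5%, 55.4% and 63.5% in the supernatants. hsa-miR-127-3p thus led in pellets 1 and 2, and hsa-miR-432-5p in pellet 3 and the 3 supernatants. The ratio of hsa-miR-127-3p to hsa-miR-432-5p, which is free of the scaling to mapped reads, was 2.1996, 1.02 and 0.530 in pellets 1, 2 and 3 and 0.786, 0.316 and 0.250 in supernatants 1, 2 and 3. Pellet 3 fell below supernatant 1. Taken with 1 RPM added to each member, the log2 difference of 1.40 had an exact permutation p of 0.20 (two-sided, 0.60 adjusted over 6 ratios).

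These 6 ratios, each with 1 RPM added to both members, were taken between hsa-miR-127-3p, hsa-miR-432-5p, hsa-miR-370-3p and hsa-miR-337-3p. hsa-miR-337-3p was above 0 in pellet 1 only, so in the other libraries its ratios give the level of the other member alone. Only the ratio of hsa-miR-127-3p to hsa-miR-337-3p was without overlap between the fractions (exact permutation p = 0.10, adjusted 0.60). The other 5 had exact permutation p values from 0.20 to 1. All 10 ratios between the 5 tested members overlapped between the fractions as well, with exact permutation p values from 0.20 to 1. Since 3 of the 6 ratios use hsa-miR-337-3p and an exact test of this size cannot fall under 0.10, these values do not show that the ratios were alike in the fractions.

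**Figure D4:**
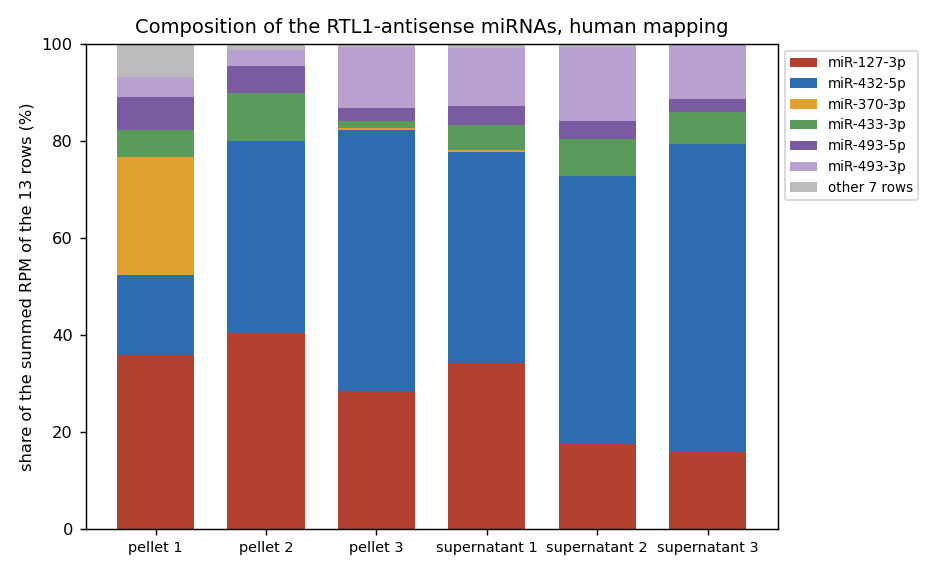
Share of each member in the summed RPM of the 13 names (percent, human mapping) by library. hsa-miR-127-3p and hsa-miR-432-5p make up most of each bar, and hsa-miR-370-3p takes 24.4% of pellet 1 and almost nothing elsewhere.

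The same reads mapped to the mouse genome gave a like picture for most members but not for miR-432-5p, and miR-493-3p could not be compared. For names in both mappings with at least 10 estimated reads in the human one, the reads of the mouse mapping were 0.970 to 1.19 times those of the human mapping, over 24 values of 10 names. hsa-miR-432-5p had an estimated 2123, 537 and 118 reads in pellets 1, 2 and 3 and 301, 307 and 338 reads in supernatants 1, 2 and 3. mmu-miR-432 had 1 read in supernatant 1 and 0 in the other 5 libraries. The second most abundant member of the human mapping was thus almost missing from the mouse mapping, where mmu-miR-127-3p led in all 6 libraries. hsa-miR-493-3p had an estimated 28.0 to 544.1 reads in the human mapping, but miR-493-3p was not among the 12 names of the group in the mouse mapping.

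mmu-miR-127-3p had 632, 333 and 66.4 RPM in pellets 1, 2 and 3 and 38.5, 22.3 and 24.0 RPM in supernatants 1, 2 and 3, with a log2 fold change of 3.09 (SE 0.78, adjusted p = 0.0198). mmu-miR-493-5p had 119, 49.9 and 8.001 RPM in pellets 1, 2 and 3 and 5.42, 4.79 and 3.84 RPM in supernatants 1, 2 and 3, and here it passed the threshold (log2 fold change 2.75, SE 0.93, adjusted p = 0.0405). Leaving out any library other than pellet 3 ended that call, with adjusted p values of 0.0688 to 0.108. mmu-miR-127-3p kept its call without any 1 pellet and lost it without any 1 supernatant. mmu-miR-433-3p did not pass (log2 fold change 1.78, SE 1.16, adjusted p = 0.193), and mmu-miR-370-3p again had 435 RPM in pellet 1 and at most 1.05 RPM elsewhere. Without pellet 1 the log2 fold changes of mmu-miR-127-3p, mmu-miR-493-5p and mmu-miR-433-3p were 2.40, 1.92 and 0.96. With median-of-ratios scaling they were 0.97, 0.78 and -0.24, and none of the 3 passed (adjusted p = 0.349, 0.581 and 0.868).

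In the mouse mapping 2 of 3 tested members were called higher in the pellets by limma and 0 lower, also at an unadjusted p under 0.05, against 80 of 143 tested miRNAs (55.9%) called higher. No overlap with all pellets higher was seen for 2 of 3 tested members and for 72% of all tested miRNAs. The call of miR-493-5p in one mapping and not in the other does not show that its change differed between them. Tested directly, as the difference of log2(RPM + 1) between the mappings in each library, the change of miR-493-5p was smaller by 0.12 in the human mapping (log2 difference -0.12, SE 0.11, adjusted p = 0.652). Neither did miR-127-3p (log2 difference -0.067, adjusted p = 0.620) or miR-433-3p (-0.028, adjusted p = 0.669) pass this test. Over all 110 names so compared, limma called 0, with 7 at an unadjusted p under 0.05. The summed level of the group in the mouse mapping, which holds next to no miR-432 and leaves out miR-493-3p, was 1407, 473 and 80.0 RPM in pellets 1, 2 and 3 and 51.5, 37.6 and 38.2 RPM in supernatants 1, 2 and 3. The ratio of the means was 15.4, and 6.52 without pellet 1, against 6.88 and 3.77 in the human mapping.

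**Figure D5:**
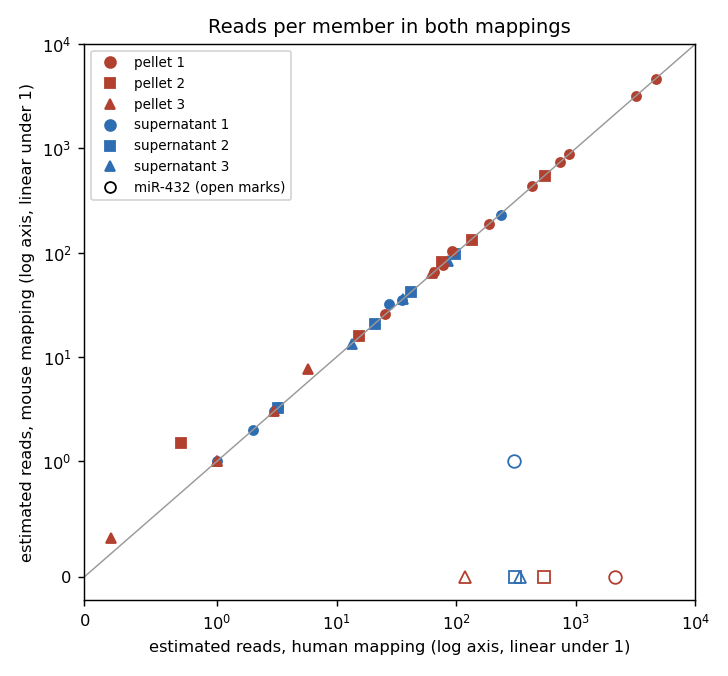
Estimated reads of each member in the human (x axis) and mouse (y axis) mapping of the same library, both axes logarithmic and linear under 1. Most marks lie on the line of equal reads, and the open marks of miR-432 lie at 118 to 2123 reads in the human and at 0 or 1 in the mouse mapping.

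The 5 tested miRNAs whose levels over the 6 libraries were most like those of hsa-miR-127-3p were named by Pearson's r of log2(RPM + 1). They were hsa-miR-543 (r = 0.995), a member of the miR-379/410 cluster further along the same domain, hsa-miR-378a-3p (0.987), whose gene lies in an intron of the metabolic regulator PPARGC1B in human and mouse, hsa-miR-128-3p (0.981), which is abundant in brain, hsa-miR-27b-3p (0.978) and hsa-miR-181b-5p (0.978). Only the first of them belongs to the imprinted domain. hsa-miR-543 had 459, 178 and 51.9 RPM in pellets 1, 2 and 3 and 31.3, 21.9 and 24.99 RPM in supernatants 1, 2 and 3, a profile close to that of hsa-miR-127-3p in order and size. Among the members, hsa-miR-493-5p was the most alike (r = 0.975, sixth of 152), followed by hsa-miR-432-5p (0.898), hsa-miR-433-3p (0.845) and hsa-miR-493-3p (0.836). The points share the split into fractions, the libraries and their depth, and high values of r were common, with a median of 0.82 over the 152 other tested miRNAs and 42 of them at 0.9 or above.

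Markers of tissues that release miRNAs into serum are given as sums, without a test. miR-122 of hepatocytes made up 59.4% to 78.3% of the miRNA reads of a library, with 49607 to 92838 RPM in pellets and 30978 to 40793 RPM in supernatants. The 4 red blood cell miRNAs summed to 167 to 512 RPM in pellets and 11.9 to 20.9 RPM in supernatants, and miR-16-2-3p was at 0 in all supernatants. Of the platelet and leukocyte list 2 names were found, summing to 31.3 to 241 RPM and 12.7 to 18.4 RPM, with hsa-miR-223-3p at 0 in 5 of 6 libraries. The 2 brain names found, hsa-miR-128-3p and hsa-miR-9-5p, summed to 62.3 to 324 RPM and 13.2 to 24.7 RPM, and the 6 muscle names to 147 to 173 RPM and 49.1 to 66.2 RPM. Single names overlapped between the fractions, as did hsa-miR-206 of skeletal muscle with 16.04 RPM in pellet 2 and 16.1 to 22.9 RPM in the supernatants. The 2 brain names differed among the pellets. hsa-miR-9-5p had 194, 0 and 28.8 RPM in pellets 1, 2 and 3, and hsa-miR-128-3p had 129.6, 128.9 and 33.4 RPM. The part of these sources in the levels of the RTL1-antisense miRNAs was not tested.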

How the data were processed

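RNA of 3 pellets and 3 supernatants of FBS was sequenced, and the authors deposited RPM values per miRNA, mapped to hg19 with the exceRpt pipeline and to mm10 with a pipeline not given in the sources used here. Tables of RNA classes were not used. Within 0.02 reads, 35.6% to 59.6% of values above 0 in the human mapping were whole reads, and no count model was fitted.

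limma 3.58.1 in R 4.3.3 was fitted to log2(RPM + 1), with a variance trend, no covariate, two-sided, and Benjamini-Hochberg adjustment over all tested miRNAs of a mapping. On this scale the change of a low miRNA is understated. Exact permutation tests used the 20 relabellings of 6 libraries. Estimated reads, floors of 3 counts and intervals cover counting error only. Steps were tested on simulated data. Python 3.11.15, numpy 2.4.6, pandas 2.3.3, scipy 1.17.1 and matplotlib 3.10.9 were used.

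All members are accounted for, and the 5 miRNAs most correlated with hsa-miR-127-3p are named. The members, lists and tests were chosen with earlier results of these data known. Alternatives were pseudocounts of 0.1 and 10 RPM, other filters (none, or a mean of at least 10 RPM) and scalings, no variance trend, a replicate block, and each library left out in turn. The study describes 3 batches of FBS, and no label ties a replicate number to a batch.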

Additional observations from a re-analysis of the deposited data

How the results depend on the processing

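The human count of 2 members called higher became 0 (2 at an unadjusted p under 0.05, limma) with no filter on low values (11 of 502 miRNAs called), 1 with RPM scaled to the listed miRNA reads (37 higher and 1 lower of 153) and 0 (0 unadjusted) with median-of-ratios scaling (1 higher and 5 lower), and 0 to 4 without 1 library. The mouse count of 2 became 1 with a pseudocount of 10 RPM (34 of 143), 0 (2 unadjusted) with no filter (10 of 395), 0 (1 unadjusted) scaled to the miRNA reads (9 higher and 1 lower) and 0 (0 unadjusted) with median-of-ratios scaling (1 higher and 7 lower), and 0 to 3 without 1 library. In the human mapping the 73 calls over all miRNAs became 38 with a pseudocount of 10 RPM, and 0 to 93 without 1 library (0 without supernatant 1 or 2, with 67 and 61 unadjusted); in the mouse mapping the 80 calls became 0 to 87. Median-of-ratios scaling moved the median log2 fold change of all tested miRNAs from 2.05 to 0.39 (human) and from 2.12 to 0.37 (mouse), and it reversed hsa-miR-432-5p (-0.41), hsa-miR-433-3p (-0.17), hsa-miR-493-3p (-0.83) and mmu-miR-433-3p (-0.24); these directions are therefore relative to mapped reads. Scaled to the miRNA reads, hsa-miR-432-5p had a log2 fold change of 0.99 (adjusted p = 0.0960). Of the 6 ratios, 1 was without overlap, 0 with a pseudocount of 0.1 RPM, 2 with 10 RPM and 1 to 3 without 1 library. The summed ratio of 6.88 was 15.4 in the mouse mapping, 14.9 for names in both mappings (chosen after seeing the data), and 3.77 to 9.47 without 1 library. With the replicate block 3 human members (78 of 153 miRNAs) and 2 mouse members (73 of 143) were called. In the human mapping the deviations of same-numbered libraries correlated with r of -0.19, 0.27 and 0.26. Pellets 1 and 3 correlated best with supernatant 3 (0.27 and 0.26), and pellet 2 with supernatant 1 (0.28). With 3 libraries per fraction these values cannot settle whether the libraries were paired. The numbers are not taken as pairs, since no label ties them to a batch. Depth limits members under 3.46 RPM in pellet 3.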

Other observations

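The miR-379/410 cluster, which follows the RTL1-antisense miRNAs in the same imprinted domain, was the more abundant neighbour. Its 54 names in the human mapping summed to 3678, 1242 and 506 RPM in pellets 1, 2 and 3 and to 258, 227 and 252 RPM in supernatants 1, 2 and 3. Of 16 tested names 6 (37.5%, against 47.7% of all tested miRNAs) were called higher in the pellets and 0 lower, also at an unadjusted p under 0.05 (limma). Their log2 fold changes had a median of 2.09, near the 2.05 of all tested miRNAs. hsa-miR-379-5p, the most abundant name over the 6 libraries together, had 495.8, 505 and 216 RPM in pellets 1, 2 and 3 and 100.2, 91.1 and 86.0 RPM in supernatants 1, 2 and 3. hsa-miR-409-3p had 532, 73.9 and 52.3 RPM in pellets 1, 2 and 3 and 22.5, 15.7 and 21.7 RPM in supernatants 1, 2 and 3. hsa-miR-654-3p, chosen after its values were seen, had 302 RPM in pellet 1 and at most 1.15 RPM elsewhere, as hsa-miR-370-3p did. Of the region outside both groups, mmu-miR-341-5p and mmu-miR-770-3p had 0.0728 and 0.0243 RPM, in supernatant 3 only.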
